A study of Homo sapiens with 12 samples.

Results

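PRC1, RACGAP1, ECT2, ANLN, CIT and CEP55 are 6 genes that encode the machinery of cytokinesis, and they were followed through 12 RNA-Seq libraries of prostate cancer cells with and without CXCR7 knockdown. The members were chosen by name, and all 6 were found among the 26439 genes of the deposited table and passed the filter on low values in each comparison. The cells were LNCaP-EnzR and C4-2B-EnzR, which are LNCaP cells and their castration-resistant derivative C4-2B after months of growth with the antiandrogen drug enzalutamide, and both were kept in it, at 2 uM for LNCaP-EnzR and 10 uM for C4-2B-EnzR. Each line was infected with lentivirus carrying the control vector (LKO) or a short hairpin RNA against CXCR7 (shCXCR7), an atypical chemokine receptor whose gene is now named ACKR3. RNA was taken 4 days after infection, and each of the 4 groups has 3 libraries. All groups are resistant cells in enzalutamide, so the knockdown is not compared with drug-sensitive or untreated cells. The sample titles also carry a different passage label for each line, so line, dose and passage cannot be told apart. Each line is a single selected population, and which of the study's hairpins was used here is not given in the sources used here. Nothing in the labels says that replicates are separate cultures, so the p-values measure the spread between these libraries, which may be technical.

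Cytokinesis is the final step of mitosis, in which the cell body is pinched apart between the separated chromosomes. PRC1 bundles antiparallel microtubules into the central spindle. There the centralspindlin complex, of which RACGAP1 is a subunit with the kinesin KIF23, recruits ECT2, the exchange factor that loads the GTPase RhoA. RhoA drives a contractile ring of actin and myosin, in which ANLN (anillin) is the scaffold and CIT (citron kinase) joins RhoA and the ring to the midbody. CEP55 then draws the ESCRT machinery to the midbody, and ESCRT-III filaments cut the last bridge. Most of these genes are transcribed late in the cell cycle, so their mRNA is used as a sign of dividing cells. Such genes are known to be controlled through CHR elements, bound by the LIN54 subunit of the DREAM and MYBL2 complexes, and through CCAAT boxes, bound by NF-Y.

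The 250 bases before the transcription start are shown for 5 of the 6 genes, because all 5 hold a CHR. They come from RefSeq on GRCh38.p14, run 5′ to 3′ on the strand of the gene, and carry the CHR and CCAAT letters in capitals on either strand, so that CCAAT on the opposite strand reads ATTGG and the CHR reads TTCAAA. No promoter of RACGAP1 was in the table used. PRC1 is shown from chr15:90994536-90994785 on the minus strand, ANLN from chr7:36389612-36389861 on the plus strand, ECT2 from chr3:172750476-172750725 on the plus strand, CEP55 from chr10:93496362-93496611 on the plus strand and CIT from chr12:119877321-119877570 on the minus strand.
PRC1: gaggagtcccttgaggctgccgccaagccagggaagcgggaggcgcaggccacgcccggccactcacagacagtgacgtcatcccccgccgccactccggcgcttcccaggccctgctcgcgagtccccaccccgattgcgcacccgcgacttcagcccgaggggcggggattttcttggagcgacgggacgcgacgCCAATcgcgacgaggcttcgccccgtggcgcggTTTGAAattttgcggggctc
ANLN: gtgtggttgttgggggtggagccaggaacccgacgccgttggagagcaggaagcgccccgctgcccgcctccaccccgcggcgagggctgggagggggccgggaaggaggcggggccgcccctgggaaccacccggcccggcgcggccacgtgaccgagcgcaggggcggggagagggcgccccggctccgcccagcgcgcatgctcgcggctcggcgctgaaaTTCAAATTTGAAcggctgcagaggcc
ECT2: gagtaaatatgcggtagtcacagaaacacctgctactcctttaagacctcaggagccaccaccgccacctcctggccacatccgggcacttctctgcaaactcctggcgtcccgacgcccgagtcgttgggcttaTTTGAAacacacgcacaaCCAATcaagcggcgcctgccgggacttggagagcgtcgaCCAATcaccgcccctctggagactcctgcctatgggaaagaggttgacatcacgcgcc
CEP55: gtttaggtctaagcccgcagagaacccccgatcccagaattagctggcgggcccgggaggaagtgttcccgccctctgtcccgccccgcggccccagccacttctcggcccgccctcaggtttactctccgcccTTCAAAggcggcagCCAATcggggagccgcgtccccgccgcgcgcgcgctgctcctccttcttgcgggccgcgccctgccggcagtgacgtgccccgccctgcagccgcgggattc
CIT: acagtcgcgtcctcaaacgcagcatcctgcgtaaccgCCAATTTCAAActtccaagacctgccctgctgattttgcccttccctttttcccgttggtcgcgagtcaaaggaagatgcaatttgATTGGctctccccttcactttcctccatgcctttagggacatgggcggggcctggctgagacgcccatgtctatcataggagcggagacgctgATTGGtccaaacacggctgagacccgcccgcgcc

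A CHR, searched as TTTGAA or TTCGAA on both strands, was present in 5 of 5 of these genes, while 14.3% of 35116 RefSeq promoters of the same length hold one. The CHR of PRC1 lay from 20 to 15 bases before the start. ANLN had a CHR at the same 20 to 15 bases and another on the opposite strand directly beside it, from 26 to 21 bases, which gives the inverted repeat TTCAAATTTGAA. The CHR of CEP55 lay farther out at 116 to 111 bases, that of ECT2 at 115 to 110 and that of CIT at 208 to 203. A CCAAT box was found in 4 of 5, with ANLN the gene without one, against 32.0% of all promoters, and PRC1 held it from 53 to 49 bases before the start. Both words together occur in 5.05% of promoters. ECT2 has a further listed start, whose window also held a CHR. The E2F words TTTGGCGC, TTTCCCGC, TTTGCCGC and TTTCGCGC were in 0 of 5, against 2.79% of all promoters. A match is a description of the letters in this window and does not show that a factor binds there.

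Values are RPKM, reads per kilobase of gene, scaled to the size of the library, divided by a median-of-ratios factor for each library so that the typical expressed gene has the same level in all libraries of a line. The libraries held 6380287 to 9831651 reads in genes. One library stands apart and bears on every LNCaP-EnzR result. The deposited RPKM of LNCaP-EnzR shCXCR7 replicate 3 summed to 104626, against 243937 to 281912 in the others and left 1636 genes at 0, where the others left 8719 to 9652. Its factor was 0.481, against 1.115 to 1.213 in the rest of its line. In 5096 genes listed at 0 in all 11 other libraries it held a median of 0.234 RPKM. Markers of blood cells (8 genes) summed to 6.83 rescaled RPKM and of basal epithelium (4 genes) to 4.57 in this library, against 0.0155 to 0.455 and 0 to 0.236 in the others, and the 8 fibroblast markers to 8.85, against 3.50 to 4.11 in the other LNCaP-EnzR and 8.89 to 12.1 in the C4-2B-EnzR libraries. For some results of the 6 genes that rest on the library, values without it are also given. Counts and fold changes of the gene lists below include it. With the background subtracted from it before rescaling, LNCaP-EnzR had 3 members called lower and the comparison of the lines 5, as without subtraction. The luminal prostate markers (9 genes) were present in all libraries, and their sum was lower after knockdown without overlap, at 621 to 634 rescaled RPKM in LNCaP-EnzR LKO and 507 to 587 in shCXCR7, and at 815 to 868 and 651 to 674 in C4-2B-EnzR, with 5 of the 9 genes lower and 2 higher in the first line and 6 lower and 3 higher in the second (limma). Of all genes tested, 20.8% were called lower and 21.2% higher in LNCaP-EnzR, and 21.0% and 21.5% in C4-2B-EnzR. The part of the lower luminal sum in the results was not tested. The targeted gene ACKR3 stood at 121.4, 115.9 and 110.2 rescaled RPKM in LNCaP-EnzR LKO and at 55.5, 50.2 and 43.2 in shCXCR7, and the mean in C4-2B-EnzR went from 85.2 ± 0.947 to 21.7 ± 2.40 (SD, n = 3 each). What remained was 42.8% of the LKO mean for LNCaP-EnzR and 25.5% for C4-2B-EnzR, so the knockdown went further in C4-2B-EnzR.

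After CXCR7 knockdown all 6 genes fell in C4-2B-EnzR cells, to between 15.7% and 56.4% of control, with CEP55 and PRC1 lowest. In LNCaP-EnzR cells 3 of them fell, PRC1, CEP55 and RACGAP1, to between 50.7% and 75.8% of control, while ANLN, ECT2 and CIT did not pass the test. The test was limma on log2(rescaled RPKM + 0.25), with p-values adjusted by Benjamini-Hochberg over all genes tested and a threshold of 0.05. At that threshold 21.0% of 13349 genes fell in C4-2B-EnzR and 20.8% of 13066 genes fell in LNCaP-EnzR cells. The median log2 fold change of the 6 genes was -1.44 for C4-2B-EnzR and -0.22 for LNCaP-EnzR, where the medians of all genes tested were 0.00 and 0.03. In C4-2B-EnzR 4 of the 6, PRC1, RACGAP1, CEP55 and CIT, fell by 2-fold or more at an adjusted p under 0.001 (limma), limits that 2.49% of genes met in that direction. In bulk RNA, fewer cells in division and less of these mRNAs in each dividing cell cannot be told apart. Over 3 libraries against 3, an exact 2-sided permutation test cannot go below p = 0.1, and it gave p = 0.1 for each gene whose groups did not overlap.

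**Figure D1:**
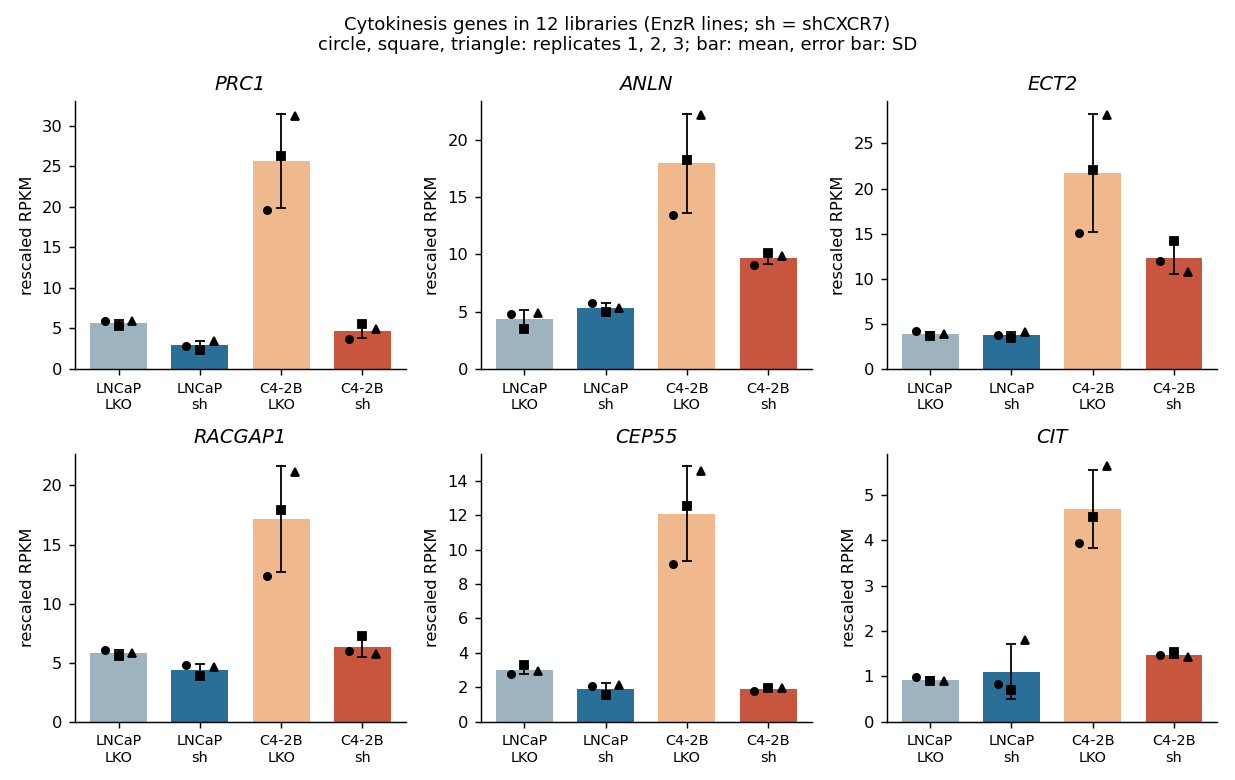
Rescaled RPKM of the 6 cytokinesis genes (y axis, from 0, 1 panel per gene) in the 4 groups (x axis), with bars for the mean, error bars for the SD and symbols for replicates 1 to 3 (sh = shCXCR7). Values are rescaled within each line. C4-2B-EnzR LKO is the highest group in every panel, as it is on values rescaled over all 12 libraries. CIT in LNCaP-EnzR shCXCR7 has a single high library at 1.80 beside 0.828 and 0.690.

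PRC1, the microtubule bundler of the central spindle, occupies bases 90966040 to 90995629 of chromosome 15 (GRCh38, minus strand), and its canonical GENCODE transcript has 15 exons. The C4-2B-EnzR control libraries held 19.6, 26.3 and 31.2 rescaled RPKM of PRC1 and the knockdown libraries 3.66, 5.58 and 4.95. Every knockdown library was below every control library, an order that 26.7% of all genes tested showed in this line. The mean fell from 25.7 ± 5.84 to 4.73 ± 0.974 (SD, n = 3 each), with a log2 fold change at -2.37 (standard error 0.19, adjusted p = 9.48e-05, limma), and only 20 of the 13349 genes tested had a lower one. In LNCaP-EnzR cells PRC1 stood at 5.93, 5.25 and 5.93 in LKO and at 2.88, 2.35 and 3.45 in shCXCR7 libraries. Again the groups did not overlap, as for 25.3% of genes in this direction, and the log2 fold change was -0.93 (standard error 0.13, adjusted p = 0.000408, limma). PRC1 was the only member that passed the test in LNCaP-EnzR under all 20 alternatives tried, at log2 fold changes from -1.27 to -0.79. The antisense gene PRC1-AS1 shares 22286 bases with PRC1, from 90966340 to 90988625, and without a stated strand setting reads there cannot be told apart.

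RACGAP1, the GTPase-activating subunit of centralspindlin, lies on chromosome 12 from 49976923 to 50033136 on the minus strand, with 17 exons in the canonical transcript. Its C4-2B-EnzR levels were 12.3, 17.9 and 21.2 rescaled RPKM in LKO and 5.99, 7.27 and 5.70 in shCXCR7 libraries. The groups were apart, with every knockdown library lower, as for 26.7% of all genes tested. The mean fell from 17.2 ± 4.47 to 6.32 ± 0.836 (SD, n = 3 each), or 36.9% of control, and the log2 fold change was -1.38 (standard error 0.19, adjusted p = 0.000949, limma). In LNCaP-EnzR the control libraries held 6.04, 5.60 and 5.82 and the knockdown libraries 4.76, 3.88 and 4.60. This was a smaller fall, again without overlap, as for 25.3% of genes in this direction. The log2 fold change was -0.38 (standard error 0.09, adjusted p = 0.00912, limma). The call was lost on RPKM as deposited (-0.72, adjusted p = 0.48, limma) and in 1 fit of all 12 libraries (-0.38, adjusted p = 0.0722, limma).

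ECT2, the exchange factor that RACGAP1 recruits, lies on chromosome 3 from 172750682 to 172821474 on the plus strand, with 25 exons. C4-2B-EnzR cells held 15.1, 22.0 and 28.2 rescaled RPKM in LKO and 11.9, 14.2 and 10.7 in shCXCR7 libraries. The groups did not overlap, as for 26.7% of genes in this direction, but the highest knockdown library, 14.2, came close to the lowest control library, 15.1. The log2 fold change was -0.78 (standard error 0.21, confidence interval at 95% from -1.26 to -0.29, adjusted p = 0.0195, limma), the smallest of the 6. The call was lost without LKO replicate 2 (-0.75, adjusted p = 0.0619, limma), without shCXCR7 replicate 1 (-0.76, adjusted p = 0.0545, limma) and without shCXCR7 replicate 3 (-0.68, adjusted p = 0.0644, limma). LNCaP-EnzR libraries gave 4.16, 3.68 and 3.87 in LKO and 3.73, 3.41 and 4.15 in shCXCR7. These ranges overlapped (exact 2-sided permutation test, p = 0.7), and the log2 fold change of -0.05 had an interval from -0.28 to 0.18 at 95% (adjusted p = 0.709, limma).

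ANLN, the scaffold of the contractile ring, lies on chromosome 7 from 36389821 to 36453791 on the plus strand, with 24 exons. In C4-2B-EnzR it stood at 13.5, 18.3 and 22.2 rescaled RPKM in LKO and at 9.08, 10.1 and 9.85 in shCXCR7 libraries. The knockdown libraries lay close together below all controls, an order that 26.7% of all genes showed. The mean fell from 18.0 ± 4.34 to 9.69 ± 0.543 (SD, n = 3 each), with the log2 fold change at -0.85 (standard error 0.16, adjusted p = 0.00442, limma). In LNCaP-EnzR the order was the opposite, with 4.80, 3.52 and 4.86 in LKO and 5.74, 5.01 and 5.29 in shCXCR7 libraries. Every knockdown library was above every control library, as for 28.0% of all genes, yet the log2 fold change, 0.28 with a standard error of 0.12, did not pass the test (adjusted p = 0.0995, limma). The sign depended on the scaling, since RPKM as deposited gave -0.06 (adjusted p = 0.965, limma), whereas limma-voom on reads recovered from the RPKM steps gave 0.33 (adjusted p = 0.0235).

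CIT, the kinase that links RhoA and the ring to the midbody, lies on chromosome 12 from 119685791 to 119877320 on the minus strand, with 48 exons in the canonical transcript. It had the lowest mean of the 6 genes per length in every group. C4-2B-EnzR libraries gave 3.93, 4.52 and 5.63 rescaled RPKM in LKO and 1.46, 1.53 and 1.42 in shCXCR7. The groups were well apart, with every knockdown library lower, as for 26.7% of all genes tested. The mean fell from 4.69 ± 0.861 to 1.47 ± 0.0566 (SD, n = 3 each), with the log2 fold change at -1.51 (standard error 0.14, adjusted p = 0.000162, limma). In LNCaP-EnzR cells CIT stood at 0.984, 0.895 and 0.901 in LKO and at 0.828, 0.690 and 1.80 in shCXCR7 libraries. Replicates 1 and 2 of the knockdown were below all controls, and replicate 3, the library with the raised background, was above them all. The log2 fold change was 0.12 (standard error 0.31, interval from -0.59 to 0.82 at 95%, adjusted p = 0.792, limma), and it was -0.23 (adjusted p = 0.309, limma) without that library. Over 19 alternatives it ranged from -0.29 to 0.34 and passed the test in none, so no direction of CIT can be given in LNCaP-EnzR.

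CEP55, which brings ESCRT proteins to the midbody, lies on chromosome 10 from 93496612 to 93529092 on the plus strand, with 9 exons. In C4-2B-EnzR it stood at 9.15, 12.5 and 14.6 rescaled RPKM in LKO and at 1.77, 1.98 and 1.96 in shCXCR7 libraries. The mean fell from 12.1 ± 2.74 to 1.90 ± 0.114 (SD, n = 3 each), or 15.7% of control, the lowest share among the 6 genes. Its log2 fold change was -2.49 (standard error 0.16, adjusted p = 3.64e-05, limma), and 17 of the 13349 genes had a lower one. The knockdown values rest on 58 to 62 reads per library and the control values on 294 to 492. In LNCaP-EnzR the LKO libraries held 2.80, 3.28 and 2.92 and the shCXCR7 libraries 2.08, 1.57 and 2.13. The groups did not overlap, as for 25.3% of genes in this direction. The log2 fold change there was -0.59 (standard error 0.14, adjusted p = 0.00849, limma), and on RPKM as deposited it was -0.90 and did not pass (adjusted p = 0.166, limma).

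**Figure D2:**
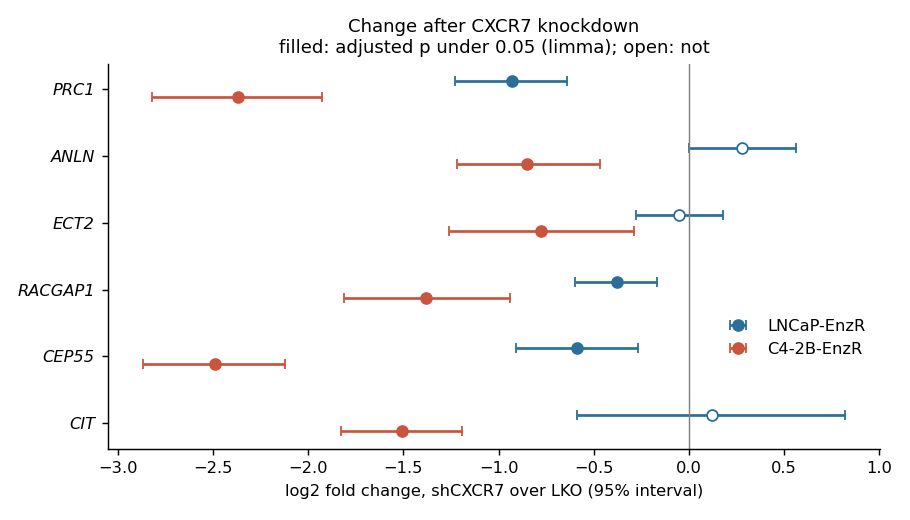
Log2 fold change of shCXCR7 over LKO (x axis) for the 6 genes (y axis) in both lines, with bars for the interval at 95%, filled points for an adjusted p under 0.05 and open points for others. The C4-2B-EnzR points run from -2.49 for CEP55 to -0.78 for ECT2, and in LNCaP-EnzR the intervals of ECT2 and CIT hold 0.

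The C4-2B-EnzR control libraries differed among themselves. All 6 genes were lowest in LKO replicate 1 and highest in LKO replicate 3 of this line, and the summed level of the 52 other G2/M genes followed the same order, at 1067, 1308 and 1604 rescaled RPKM, with 646 to 758 in the knockdown libraries. In LNCaP-EnzR the same sum was 580 to 599 in LKO and 542 to 566 in shCXCR7 libraries. The part of this general G2/M level in the change of the 6 genes was not tested.

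The response differed between the lines for 5 of the 6 genes, by an interaction term fitted to all 12 libraries (limma, adjusted p under 0.05). All 5 differences were toward a larger fall in C4-2B-EnzR, a direction in which 6.64% of 14235 genes differed. CEP55 had the largest difference in log2 fold change at -1.91 (standard error 0.22, adjusted p = 0.000421, limma), followed by CIT at -1.63 (standard error 0.34, adjusted p = 0.00948, limma), and CIT stood at -1.28 without LNCaP-EnzR shCXCR7 replicate 3 and was still called. The differences of PRC1, ANLN and RACGAP1 were -1.44, -1.13 and -0.99 (standard errors 0.26, 0.22 and 0.23, adjusted p = 0.00418, 0.00712 and 0.0147, limma). ECT2 did not pass at -0.72 (standard error 0.25, interval from -1.27 to -0.17 at 95%, adjusted p = 0.0822, limma), and without C4-2B-EnzR LKO replicate 1 it did, at -0.97 (adjusted p = 0.00417, limma). Each of the 5 calls held under 23 of 24 alternatives, and all 5 were lost on RPKM as deposited. The differences were then -1.57 for CEP55, -1.30 for CIT, -1.08 for PRC1, -0.76 for ANLN and -0.63 for RACGAP1, with standard errors of 0.38, 0.31, 0.41, 0.46 and 0.45. ACKR3 itself also fell further in C4-2B-EnzR, with a difference of -0.74 (standard error 0.13, adjusted p = 0.00438, limma).

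In the control (LKO) libraries the 6 genes were higher in C4-2B-EnzR than in LNCaP-EnzR cells. On values rescaled over all 12 libraries, 6 of 6 passed the test between the control groups, where 33.3% of 13278 genes were called higher in C4-2B-EnzR. The log2 differences were 2.08 for ECT2, 1.81 for PRC1, 1.80 for CIT, 1.67 for ANLN, 1.62 for CEP55 and 1.20 for RACGAP1, with standard errors from 0.14 to 0.20 and adjusted p from 2.3e-05 to 0.000506 (limma). This comparison uses the same control libraries as the knockdown comparisons, so a high control level enters both.

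On that common scale the genes fell into different orders over the 4 groups, with C4-2B-EnzR LKO at the top in each case. RACGAP1 ran from 4.87 ± 0.517 in LNCaP-EnzR shCXCR7 over 5.75 ± 0.748 in C4-2B-EnzR shCXCR7 to 6.43 ± 0.245 in LNCaP-EnzR LKO (SD, n = 3 each), and in this order neighbouring groups overlapped, while C4-2B-EnzR LKO at 15.4 ± 3.97 did not. CEP55 in knocked-down C4-2B-EnzR cells, 1.73 ± 0.104, overlapped LNCaP-EnzR shCXCR7 at 2.12 ± 0.336 and lay below LNCaP-EnzR LKO at 3.31 ± 0.273. PRC1 likewise overlapped between the knockdown groups, at 3.19 ± 0.593 for LNCaP-EnzR and 4.30 ± 0.884 for C4-2B-EnzR, both below LNCaP-EnzR LKO at 6.30 ± 0.437. That overlap came from LNCaP-EnzR shCXCR7 replicate 3 at 3.78. Replicates 1 and 2, at 3.20 and 2.59, lay below the lowest C4-2B-EnzR shCXCR7 library at 3.33. For CIT the 3 lower groups overlapped as neighbours, with means from 1.02 to 1.34, but only through LNCaP-EnzR shCXCR7 replicate 3 at 1.97. Replicates 1 and 2 of that group, at 0.920 and 0.763, lay below LNCaP-EnzR LKO at 0.987 to 1.09. The C4-2B-EnzR shCXCR7 libraries lay above these controls, at 1.29 to 1.39. ECT2 and ANLN kept a gap between the lines after knockdown. ECT2 stood at 11.2 ± 1.59 in C4-2B-EnzR shCXCR7, above both LNCaP-EnzR groups at 4.15 ± 0.384 and 4.31 ± 0.271, which overlapped. ANLN stood at 8.82 ± 0.492 there, against 5.90 ± 0.432 in LNCaP-EnzR shCXCR7 and 4.85 ± 0.836 in LNCaP-EnzR LKO, and no neighbouring groups of ANLN overlapped.

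The balance among the 6 genes was measured as the log2 ratio of each gene to the mean of the other 5 within a library, a quantity that no scaling of the library can change. An added background, such as that of LNCaP-EnzR shCXCR7 replicate 3, can change it. The mean of this log2 ratio in shCXCR7 minus that in LKO libraries was -1.21 for CEP55, -0.96 for PRC1, 1.01 for ECT2, 0.93 for ANLN and 0.27 for RACGAP1 in C4-2B-EnzR. The LNCaP-EnzR differences were -0.86 for PRC1, -0.44 for CEP55, 0.69 for ANLN and 0.27 for ECT2. CIT differed by 0.49 in LNCaP-EnzR, or by 0.13 without shCXCR7 replicate 3, and by -0.03 in C4-2B-EnzR, where its groups overlapped. RACGAP1 differed by -0.15 in LNCaP-EnzR, also with overlap. Apart from CIT, the LNCaP-EnzR ratios are given only with shCXCR7 replicate 3 included. The 12 ratios were tested, and none can pass the threshold in this design, whose smallest p is 0.1, or 0.12 after adjustment over the 12 (exact 2-sided permutation test). The 6 ratios of a line sum to 0 by construction, so they are not independent.

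**Figure D3:**
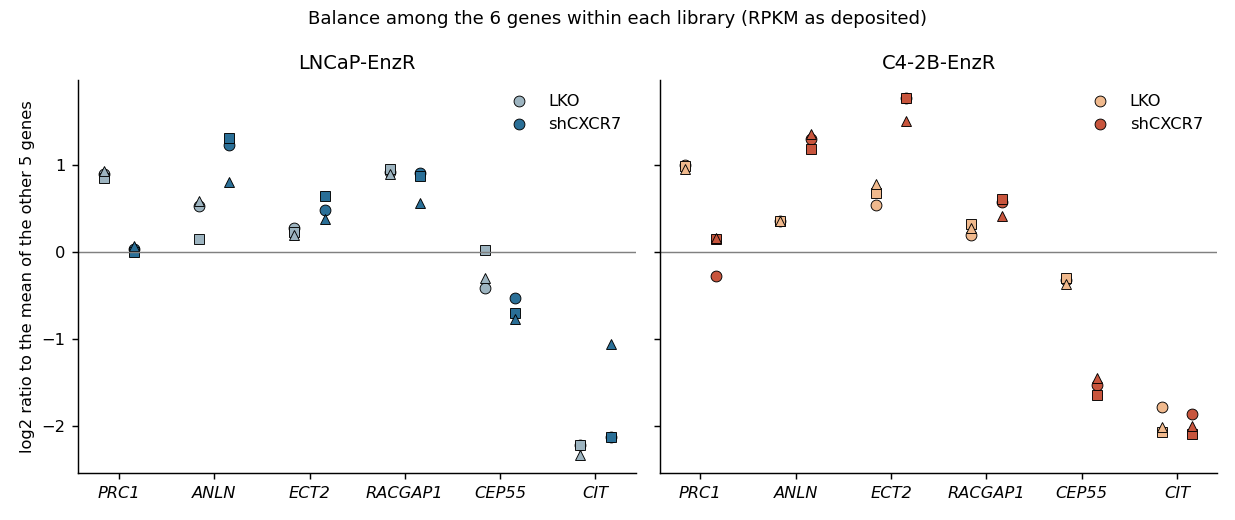
Log2 ratio of each gene to the mean of the other 5 in the same library (y axis, RPKM as deposited), for LKO and shCXCR7 libraries of each line, with circles, squares and triangles for replicates 1, 2 and 3. PRC1 goes from 0.98 to 0.02 in C4-2B-EnzR and from 0.89 to 0.03 in LNCaP-EnzR (means of 3), and the mean of ANLN goes from 0.36 to 1.28 and from 0.42 to 1.12.

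The partners of the 6 genes were described by lists from the same pathway, without the members. Of 11 genes of the central spindle and chromosomal passengers, 11 fell in C4-2B-EnzR (median log2 fold change -1.57), where 21.0% of all genes fell. In LNCaP-EnzR 4 of them fell (median -0.21), where 20.8% of all genes fell. AURKB, the kinase of the chromosomal passenger complex, went from 25.6 ± 7.16 to 5.64 ± 1.87 rescaled RPKM (SD, n = 3 each) in C4-2B-EnzR, or -2.15 on the log2 scale (standard error 0.26, adjusted p = 0.000529, limma), and was at -0.33 in LNCaP-EnzR (adjusted p = 0.155). BIRC5 (survivin), of the same complex, fell in both lines, with -2.05 and -0.63 (adjusted p = 0.000173 and 0.000308, limma). PLK1, which primes ECT2 recruitment, fell too, with -1.64 and -0.46 (adjusted p = 0.000408 and 0.0111, limma), and the kinesin KIF14 fell in C4-2B-EnzR with -1.64 and stood at -0.14 in LNCaP-EnzR (adjusted p = 0.00088 and 0.703, limma). In LNCaP-EnzR LKO and shCXCR7, AURKB held 4.56, 6.13 and 6.66 against 4.08, 3.77 and 5.83. KIF14 held 1.62, 1.05 and 1.06 against 0.991, 0.792 and 1.57. For both genes only shCXCR7 replicate 3, with the raised background, was not below all controls, so a lack of change cannot be read from them. By the interaction term, 10 of the 11 differed between the lines toward a larger fall in C4-2B-EnzR, a direction in which 6.64% of all genes differed. The eleventh, the phosphatase gene CDC14A, is named after its values were seen. It had the largest fall of the list in LNCaP-EnzR, from 1.94, 2.08 and 1.10 rescaled RPKM to 0.394, 0.25 and 0.908 (log2 fold change -1.40, adjusted p = 0.0122, limma), against -0.43 in C4-2B-EnzR (adjusted p = 0.0297), and the difference of 0.97 did not pass the test (adjusted p = 0.136).

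Genes of RhoA and the contractile ring moved in both directions. Of 16, 4 fell and 9 rose in C4-2B-EnzR (median 0.34), where 21.0% of all genes fell and 21.5% rose. In LNCaP-EnzR 1 of 15 fell and 6 rose (median 0.09), where 20.8% of all genes fell and 21.2% rose. MYL9 was left out there, because it passed the filter only through the knockdown libraries. DIAPH3, a formin that elongates actin filaments, fell from 3.47 ± 0.994 to 1.25 ± 0.228 rescaled RPKM in C4-2B-EnzR (log2 fold change -1.28, adjusted p = 0.00241, limma). The myosin light chains went the other way. MYL12A rose from 40.6 ± 2.93 to 108 ± 4.32 in C4-2B-EnzR and from 20.5 ± 1.16 to 41.2 ± 2.97 in LNCaP-EnzR (SD, n = 3 each), with log2 fold changes of 1.40 and 0.99 (adjusted p = 2.31e-05 and 8.99e-06, limma). MYL9, the smooth-muscle form, rose from 3.73 ± 1.02 to 47.0 ± 6.90 in C4-2B-EnzR (log2 fold change 3.59, adjusted p = 2.06e-05, limma).

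For abscission and ESCRT-III, the machinery that CEP55 recruits, 10 of 18 genes rose and 2 fell in C4-2B-EnzR (median 0.26). Of all genes there, 21.5% rose and 21.0% fell. In LNCaP-EnzR 6 of 17 rose and 4 fell (median 0.13), where 21.2% of all genes rose and 20.8% fell. The share of falls in LNCaP-EnzR was thus near that of all genes. CHMP2B, an ESCRT-III subunit, rose from 15.5 ± 2.47 to 29.5 ± 1.72 rescaled RPKM in C4-2B-EnzR and from 13.0 ± 0.134 to 18.5 ± 1.91 in LNCaP-EnzR (SD, n = 3 each), with log2 fold changes of 0.93 and 0.49 (adjusted p = 0.000718 and 0.000999, limma). CHMP6 and CHMP1B each rose by 0.58 in C4-2B-EnzR and by 0.57 and 0.48 in LNCaP-EnzR. VPS4B, the ATPase that takes ESCRT-III filaments apart, fell in both, with -0.64 and -0.66 (adjusted p = 0.000813 and 0.000133, limma). The difference between the lines ran from -0.20 to 0.44 over the 18 genes, with the highest value for CHMP2B (adjusted p = 0.0804 for the interaction, limma).

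**Figure D4:**
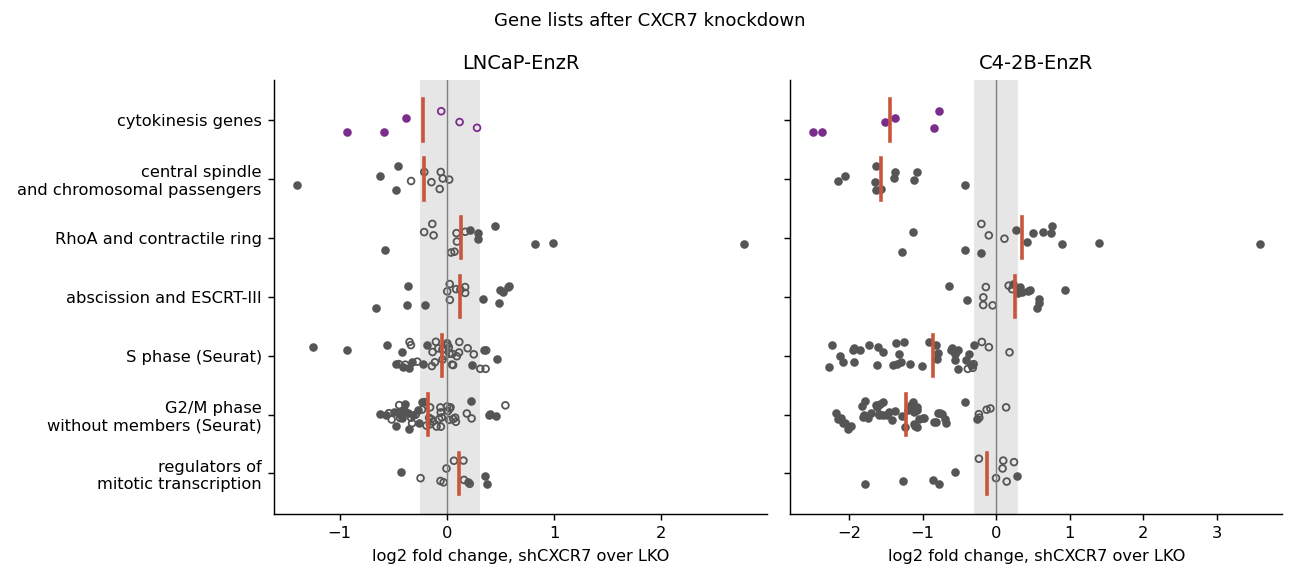
Log2 fold change of shCXCR7 over LKO (x axis) for each gene of the 6 cytokinesis genes and of 6 lists (y axis), with filled points for an adjusted p under 0.05, red bars for the median and a grey band for the middle 50% of all genes tested. In C4-2B-EnzR the medians of the cytokinesis genes (-1.44), the central spindle (-1.57) and G2/M genes (-1.23) lie left of the band, and that of ESCRT-III (0.26) inside it. All tested genes are drawn, also those left out in the text because they passed the filter through 1 group only. The drawn medians are therefore 0.13 for the contractile ring in LNCaP-EnzR and -0.87 for S phase in C4-2B-EnzR.

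Of the 52 other G2/M genes, 47 fell in C4-2B-EnzR (median -1.23), where 21.0% of all genes fell. In LNCaP-EnzR 16 fell and 4 rose (median -0.18), where 20.8% of all genes fell and 21.2% rose. By the interaction term 40 of the 52 fell further in C4-2B-EnzR, a direction of 6.64% of all genes. In S phase, 34 of 41 fell in C4-2B-EnzR (median -0.82), leaving out 1 gene that passed the filter only through the control libraries. In LNCaP-EnzR 10 of 41 S phase genes fell and 3 rose (median -0.04), a share of falls near that of all genes. The G2/M list shares AURKB and BIRC5, among others, with the central spindle list.

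The 12 regulators of mitotic transcription include the DREAM and MYBL2 complexes that bind CHR elements and the NF-Y subunits that bind CCAAT. Of these 12, 5 fell and 1 rose in C4-2B-EnzR (median -0.12), where 21.0% of all genes fell and 21.5% rose. In LNCaP-EnzR 1 fell and 3 rose (median 0.11), where 20.8% of all genes fell and 21.2% rose. The share of rises in LNCaP-EnzR was thus near that of all genes. MYBL2 went from 23.4 ± 6.44 to 6.54 ± 1.21 rescaled RPKM in C4-2B-EnzR, or -1.78 on the log2 scale (standard error 0.20, adjusted p = 0.000406, limma), and stood at 5.26 ± 0.300 and 5.53 ± 0.469 in LNCaP-EnzR (SD, n = 3 each), at 0.07 (adjusted p = 0.595). FOXM1, the forkhead factor of G2/M genes, showed -1.26 in C4-2B-EnzR (adjusted p = 0.000642, limma) and -0.03 in LNCaP-EnzR (adjusted p = 0.806), and the lines differed for both genes (-1.85 and -1.23, adjusted p = 0.000811 and 0.00221 for the interaction, limma). LIN9, a core subunit of both complexes, fell in C4-2B-EnzR (-0.86, adjusted p = 0.00407, limma), and TFDP1, a partner of E2F factors, fell in both lines (-0.78 and -0.43).

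The 6 genes followed each other closely but not equally over the 12 libraries. Pearson's r of log2 levels between pairs of members ran from 0.622 to 0.979, with a median of 0.857, over libraries that share lines and scaling, so it is given as a description. Of the 3 genes most like each member among 12145 compared, RACGAP1 had TPX2, NUSAP1 and PBK at r = 0.992 each. PRC1 had CKAP5 at 0.991 and SPAG5 at 0.982. CIT had STIL (0.987), ESPL1 (0.987) and PIF1 (0.982). CEP55 had CDC6 (0.988) and CLSPN (0.984), and ANLN had RFC3 (0.982), ZWILCH (0.978) and TOPBP1 (0.977). ECT2 had MYNN and RCAN3 at 0.985 each. For PRC1, CEP55 and ECT2, 1 of the 3 genes each is not reported here, and it ranked above at least 1 of those named, so the named genes describe no theme.

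How the LNCaP-EnzR values were treated mattered most for the weaker changes. PRC1 kept a log2 fold change near -1 whether values were rescaled (-0.93), corrected for the background of shCXCR7 replicate 3 (-0.97), taken without that library (-1.07) or analysed as recovered reads (-0.97). RPKM as deposited gave lower values for all 6 genes, and the median of all genes was then -0.31. The standard errors were 0.32 to 0.43 on these values and 0.09 to 0.31 on rescaled values, with little change for CIT. Relative to the median, PRC1 at -1.27, CEP55 at -0.90, RACGAP1 at -0.72 and ECT2 at -0.39 were lower, and ANLN at -0.06 and CIT at -0.19 higher.

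**Figure D5:**
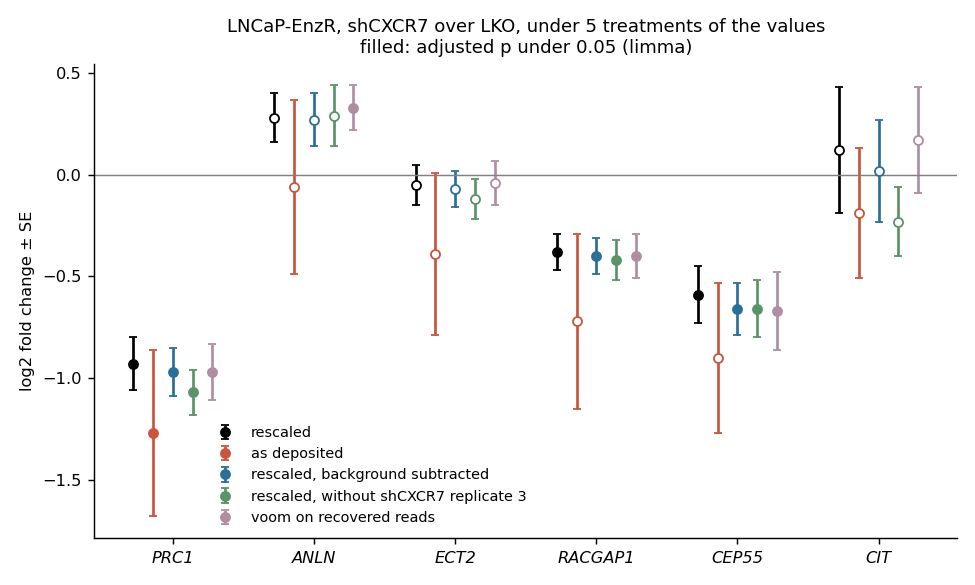
Log2 fold change with its standard error (y axis) for the 6 genes in LNCaP-EnzR (x axis) under 5 treatments of the values, with filled points for an adjusted p under 0.05. PRC1 is filled under all 5, CEP55 and RACGAP1 under all but the deposited values, ANLN only with recovered reads, and ECT2 and CIT under none.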

How the data were processed

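RNA-Seq libraries of 12 samples were made by the authors (NEBNext Ultra kit), read from 1 end and mapped by STAR on GRCh38, which the submitters' processing notes call hg38. The authors deposited 1 table of RPKM per gene from an in-house Perl script, and their own tests used other software on counts. The annotation and strand setting were not given in the sources used here. Of 26475 lines, 32 without values and 4 repeated symbols were dropped.

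Values were divided by median-of-ratios factors over genes above 0 in every library of a line with a geometric mean of at least 1 RPKM. The tests were run with limma 3.58.1 in R 4.3.3 with a variance trend, on log2(value + 0.25), over genes at 0.5 or more in at least 3 libraries, so fold changes of low genes are understated. Factors over all 12 libraries served comparisons of levels between lines. Whole reads (within 0.02 reads) were recovered from the RPKM steps for 19778 of 19778 genes with a value in at least 3 libraries, and for 0 of 1000 after shuffling. Replicates differed by more than counting error (chi-square per degree of freedom 1.63 to 19.1), so none was counted as a copy. Fits were tested on simulated data. Python 3.11.15, numpy 2.4.6, pandas 2.3.3, scipy 1.17.1 and matplotlib 3.10.9 were used, with GENCODE 44 for positions and RefSeq for promoters.

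The members and lists were chosen with earlier results of these data known. Named genes were the 6 members, up to 4 per pathway list with the largest change in C4-2B-EnzR among those at an adjusted p under 0.05 in either line, and the 3 genes with the highest r with each member, of which some are not reported here. CDC14A was named after its values were seen.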

Additional observations from a re-analysis of the deposited data

Results flagged for a closer look

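The change after CXCR7 knockdown differed between C4-2B-EnzR and LNCaP-EnzR for 5 genes, by the interaction term of limma over 12 libraries. The difference in log2 fold change, C4-2B-EnzR minus LNCaP-EnzR, was -1.91 for CEP55, -1.63 for CIT, -1.44 for PRC1, -1.13 for ANLN and -0.99 for RACGAP1. The fold changes behind them were -2.49 and -0.59 for CEP55, -1.51 and 0.12 for CIT, -2.37 and -0.93 for PRC1, -0.85 and 0.28 for ANLN, and -1.38 and -0.38 for RACGAP1, in C4-2B-EnzR and LNCaP-EnzR respectively.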

How the results depend on the processing

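On RPKM as deposited, LNCaP-EnzR had 1 member called lower in place of 3 and 607 genes called in all in place of 5489, and the interaction had 0 members lower in place of 5 (voom on rescaled recovered reads called 5, and 3 of the deposited values had p under 0.05 before adjustment) and 53 genes in place of 1811 (limma). The share of called genes that were lower was then 61.1% in place of 49.6% in LNCaP-EnzR and 62.3% in place of 52.2% in the interaction, whose median over all genes was 0.33 in place of -0.03. Voom on recovered reads called 1 member higher in LNCaP-EnzR in place of 0, which was ANLN, and it did so again without LNCaP-EnzR shCXCR7 replicate 3, an alternative chosen after seeing the data. Leaving out 1 library at a time gave 1130 to 2072 genes called for the interaction, with 1130 without LNCaP-EnzR LKO replicate 3, 1131 without C4-2B-EnzR shCXCR7 replicate 1 and 1202 without C4-2B-EnzR shCXCR7 replicate 2. No result with a call changed its sign. In C4-2B-EnzR and between the control groups every count stayed within 1.5 times its main value under the alternatives run, which were other scalings, pseudocounts, filters, forms of empirical Bayes (within lines), voom, a replicate block and leaving out each library. At a filter of 1 RPKM, CIT was not tested in LNCaP-EnzR. CEP55 rests on 58 to 142 reads per library outside C4-2B-EnzR LKO, which limits its precision.

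Replicate numbers were shared between groups, but same-numbered libraries did not deviate together (correlation of deviations -0.1 to 0.03 for LNCaP-EnzR and -0.11 to 0.06 for C4-2B-EnzR), so the numbers were not taken as pairs. With the replicate block, 3 members were called for LNCaP-EnzR, 6 for C4-2B-EnzR, 5 in the interaction and 6 between controls, and the genes called for the interaction went from 1811 to 1118.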

Other observations

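Both genes that could share reads with a member were low. PRC1-AS1, the antisense neighbour of PRC1, held 2 to 11 reads in 11 libraries and 21 in LNCaP-EnzR shCXCR7 replicate 3. RACGAP1P, a pseudogene of RACGAP1, held 33 reads in that library, 1 in C4-2B-EnzR LKO replicate 2, 1 in C4-2B-EnzR shCXCR7 replicate 3 and 0 in the rest.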
